A study of Mus musculus with 10 samples.

Results

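A set of 10 genes of salt and water transport in the mouse colon were followed across the intestine, the liver and the spleen of male ICR mice at 28 and at 4 months of age. They were the sodium channel subunits Scnn1a, Scnn1b and Scnn1g, the aldosterone genes Hsd11b2 and Nr3c2, the potassium pump Atp12a, the water channels Aqp8 and Aqp4, and the anion transporters Best2 and Slc26a3. They were chosen by measured values of these same arrays, namely their pattern over the intestinal segments and their ratio of 28 over 4 months, so both are described here without a test. The 10 genes are 10 of 18194 genes named alone by a probe set, and 15 of 34958 such probe sets out of 45101 on the array. Aqp4 had 3 probe sets, Slc26a3 had 4 and each of the others had 1.

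The groups were 28-month-old mice, of which 9 gave tissue, and 4-month-old mice, of which 6 did. From each, liver and spleen were taken, and 3 intestinal segments: jejunum, ileum and distal colon. All were male ICR mice, an outbred stock, housed singly under specific-pathogen-free conditions; the labels of 7 arrays give the AIN-93 diet alone. The older group arrived aged 8 months and the younger group aged 2 months. Equal amounts of RNA from the mice of a group were pooled for each tissue, and 100 ng of the pool was labelled and read on 1 Affymetrix Mouse Genome 430 2.0 array. Each of the 10 groups therefore held 1 array, with no replicate and no value per animal, and no difference between ages has a replicate check. The protocol text of the other 3, the intestinal arrays of 28 months, describes mice on the AIN-93 diet and also mice given the same diet with LB81 yogurt. The number of mice in the series design matches the mice without yogurt, but diet and preparation of those 3 arrays cannot be told apart from age in the intestine.

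The distal colon takes up the last sodium and water from the gut contents. Its epithelium does so through the epithelial sodium channel ENaC in the apical membrane, driven by the sodium pump in the basolateral membrane, and the hormone aldosterone raises this uptake. Aldosterone acts through the mineralocorticoid receptor, encoded by Nr3c2, which glucocorticoids also bind. The enzyme encoded by Hsd11b2 inactivates glucocorticoids in these cells and so leaves the receptor to aldosterone. Chloride is taken up in exchange for bicarbonate, potassium is recovered by a proton-potassium pump, and water follows through the cells or between them.

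The promoter sequences are shown for 4 members. Of these 3, Scnn1g, Scnn1b and Aqp8, lie close together on chromosome 7, and Slc26a3 on chromosome 12 had high signal in all 3 intestinal segments. All 4 read higher in distal colon than in either small intestinal segment at both ages. RefSeq windows on GRCm38.p6, from 250 bases before to 50 bases after a transcript start, were matched for these 4 and for Nr3c2. Scnn1a, Hsd11b2, Atp12a and Best2 were not matched, and no window was read for Aqp4. The windows are chr7:121734229-121734528 for Scnn1g, chr7:121864788-121865087 for Scnn1b, chr7:123462044-123462343 for Aqp8 and chr12:31437969-31438268 for Slc26a3, all on the plus strand and printed 5′ to 3′. Capitals mark the motifs named after them.
Scnn1g: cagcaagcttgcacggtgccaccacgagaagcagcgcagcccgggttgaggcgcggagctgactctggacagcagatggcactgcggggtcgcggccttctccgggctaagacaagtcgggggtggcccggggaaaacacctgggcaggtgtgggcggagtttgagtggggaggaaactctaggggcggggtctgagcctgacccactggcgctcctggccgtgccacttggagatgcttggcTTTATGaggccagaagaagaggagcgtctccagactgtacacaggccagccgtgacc
Scnn1b: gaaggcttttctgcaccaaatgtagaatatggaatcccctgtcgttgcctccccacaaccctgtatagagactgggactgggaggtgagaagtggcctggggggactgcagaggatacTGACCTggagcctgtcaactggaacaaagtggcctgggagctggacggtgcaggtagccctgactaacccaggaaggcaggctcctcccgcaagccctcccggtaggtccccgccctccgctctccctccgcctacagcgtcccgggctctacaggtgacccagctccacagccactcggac
Aqp8: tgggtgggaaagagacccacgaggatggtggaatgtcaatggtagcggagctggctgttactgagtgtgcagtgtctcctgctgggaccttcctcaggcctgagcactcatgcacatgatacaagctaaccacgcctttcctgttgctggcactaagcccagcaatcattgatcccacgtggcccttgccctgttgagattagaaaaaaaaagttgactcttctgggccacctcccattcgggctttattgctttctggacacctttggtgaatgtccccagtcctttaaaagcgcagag
Slc26a3: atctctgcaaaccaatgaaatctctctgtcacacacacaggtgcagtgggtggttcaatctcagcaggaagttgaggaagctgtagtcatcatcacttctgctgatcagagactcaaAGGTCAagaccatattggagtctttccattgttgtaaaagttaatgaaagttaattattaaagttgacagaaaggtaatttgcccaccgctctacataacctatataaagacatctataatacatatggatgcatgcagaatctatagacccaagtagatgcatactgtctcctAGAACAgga
In all, 3 motifs were searched on both strands: AGAACA, the core recognised by the steroid receptor group that includes the mineralocorticoid receptor; TTTATG, recognised by CDX proteins of the gut epithelium; and AGGTCA, the core bound by many other nuclear receptors. The Scnn1g window held TTTATG, starting 7 bases before the transcript start. The Scnn1b window held AGGTCA on the minus strand, printed as TGACCT, starting 132 bases before the start. The Slc26a3 window held AGGTCA 133 bases before the start and AGAACA 41 bases after it. That window, like the window of Nr3c2, lies wholly inside the span of its gene, so its start is not the first base of the gene. The Aqp8 and Nr3c2 windows held none of these letters. Of all 32851 RefSeq promoter windows, 19.0% held AGAACA, 11.9% held TTTATG and 16.3% held AGGTCA. The full inverted repeat, AGAACA then any 3 bases then TGTTCT, occurred in 0.00913% of all windows and in none of the 5. A match is a match of letters only, and these windows are not the whole regulatory sequence of a gene. The window of Slc26a3 had 39.3% G and C, against 64.7% for Scnn1g, 61.7% for Scnn1b and 52.0% for Aqp8, with a median of 52.7% over all windows.

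On GRCm38.p6, Scnn1g spans chr7:121734420-121768482 and Scnn1b spans chr7:121865038-121918728, 96.6 kb apart. Aqp8 at chr7:123462294-123468003 lies on the same side, and all 3 genes fall within 1.73 Mb. Scnn1a is on chromosome 6 at chr6:125314271-125344943. Hsd11b2 at chr8:105518746-105523988, Nr3c2 at chr8:76898083-77245012 and Best2 at chr8:85007202-85014531 are on chromosome 8, Atp12a is at chr14:56364669-56388551 and Slc26a3 at chr12:31433142-31473922.

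Signals are given in units of an array scaled to a trimmed mean of 500, and a floor of 111 units, the median of all signals, was set under them. A gene is called measured in a tissue where at least 1 age lay above the floor. Folds against an array at the floor are lower bounds, written as at least. Signals of different genes come from different probes and are not compared. Defining genes were read as a check of the tissue labels. The albumin gene Alb read 50608 units at 28 months and 51037 units at 4 months in liver, and at most 175 units in the intestine. Ms4a1, a B cell gene, read 12818 units in spleen at 28 months and 14092 units at 4 months. Hoxb13, a gene of the most posterior body segments, read 8492 and 6355 units in distal colon at 28 and 4 months and stayed under the floor in jejunum and ileum. Fabp6, the ileal bile acid binding protein, read 35830.5 and 20178 units in ileum at those ages. Lct, the lactase gene of the upper small intestine, read 92.1 units in ileum at 28 months against 14054 units at 4 months. The 10 markers of the proximal small intestine summed to 18749 units in ileum at 28 months, against 127796 units at 4 months and 129611 units in jejunum at 4 months. Of these Cubn read 9856 units in ileum at 28 months and 8281 units at 4 months, above 73.1 and 3631 units in jejunum. The array labelled ileum of 4 months thus carried the proximal list at the level of the jejunum, and every age ratio of the ileum below rests on it. The ileum and jejunum arrays of 4 months correlated at 0.986 over all probe sets, and those of 28 months at 0.975.

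The plot of signals by tissue shows each member on all 10 arrays. All 10 members had their highest signal in distal colon at 28 months, and 8 of 10 had it there at 4 months, when Scnn1a and Aqp8 were higher in liver.

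**Figure D1:**
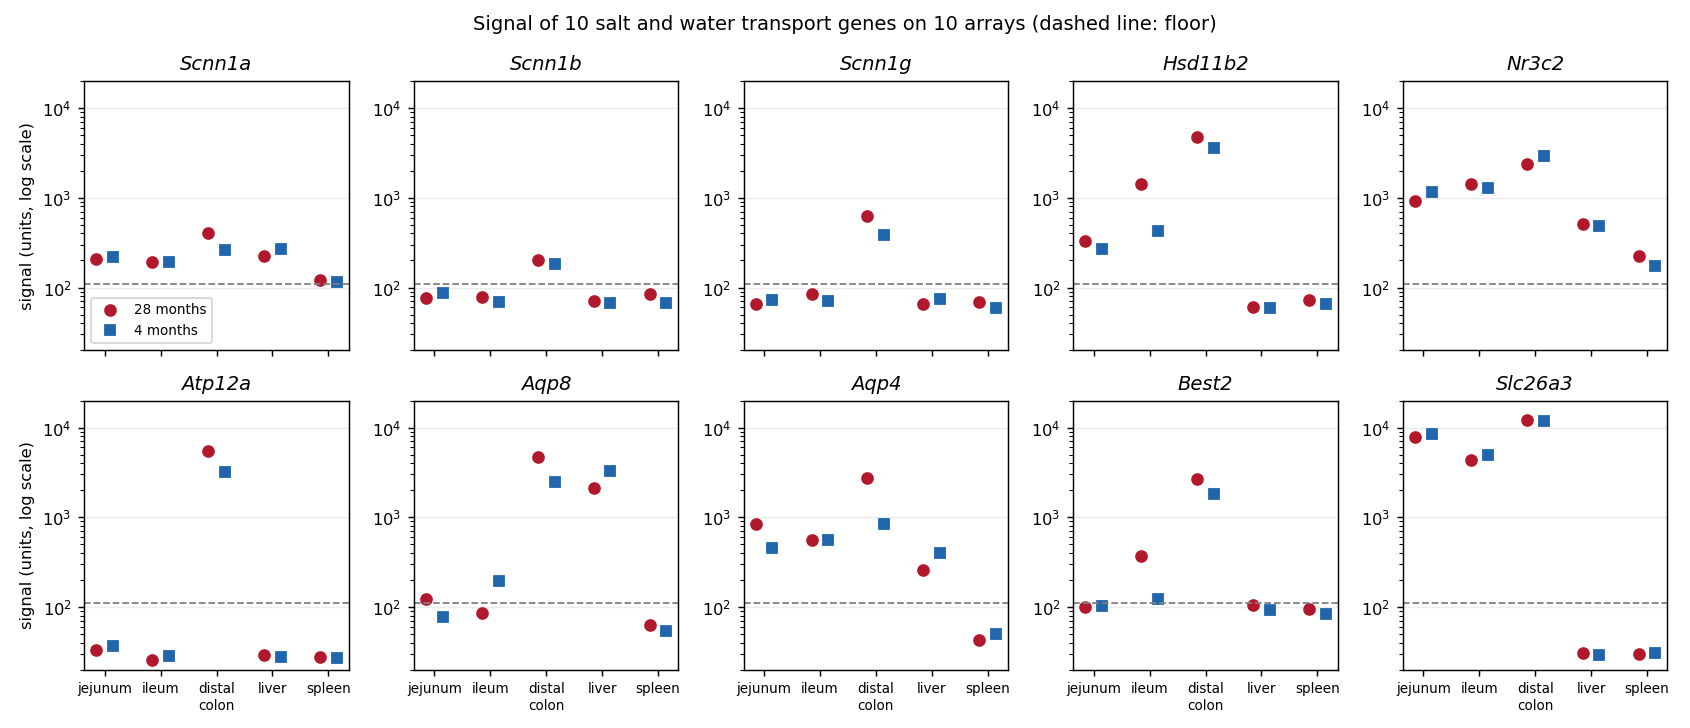
Signal of each member (vertical axis, units, log scale) in jejunum, ileum, distal colon, liver and spleen (horizontal axis). Circles are the 28-month arrays and squares the 4-month arrays, 1 array each; the dashed line is the floor of 111 units. Atp12a, Scnn1b and Scnn1g are above the floor in distal colon alone, and Nr3c2 and Scnn1a on all 10 arrays.

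Distal colon was 2-fold or more above both jejunum and ileum for 6 of 10 members at 28 months and for 6 of 10 at 4 months. Over all measured genes the share was 4.05% at 28 months and 8.25% at 4 months. The segment pattern chose the members, so nothing is read from this contrast. At both ages these were Scnn1g, Hsd11b2, Atp12a, Aqp8 and Best2, with Aqp4 added at 28 months and Nr3c2 added at 4 months. Atp12a was at least 49.2-fold above both at 28 months and at least 29.2-fold at 4 months. Aqp8 was 38.5-fold above jejunum and at least 42.8-fold above ileum at 28 months. At 4 months Aqp8 was at least 22.4-fold above jejunum and 12.6-fold above ileum. Set against jejunum alone, 7 members at 28 months and 6 at 4 months were 2-fold or more higher in distal colon. The share of all genes against jejunum alone was not computed, so nothing is read from these counts either. Slc26a3 had the smallest gap to jejunum at 28 months, 1.55-fold, and Scnn1a the smallest at 4 months, 0.26 on the log2 scale, when Slc26a3 was 1.41-fold higher in distal colon.

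**Figure D2:**
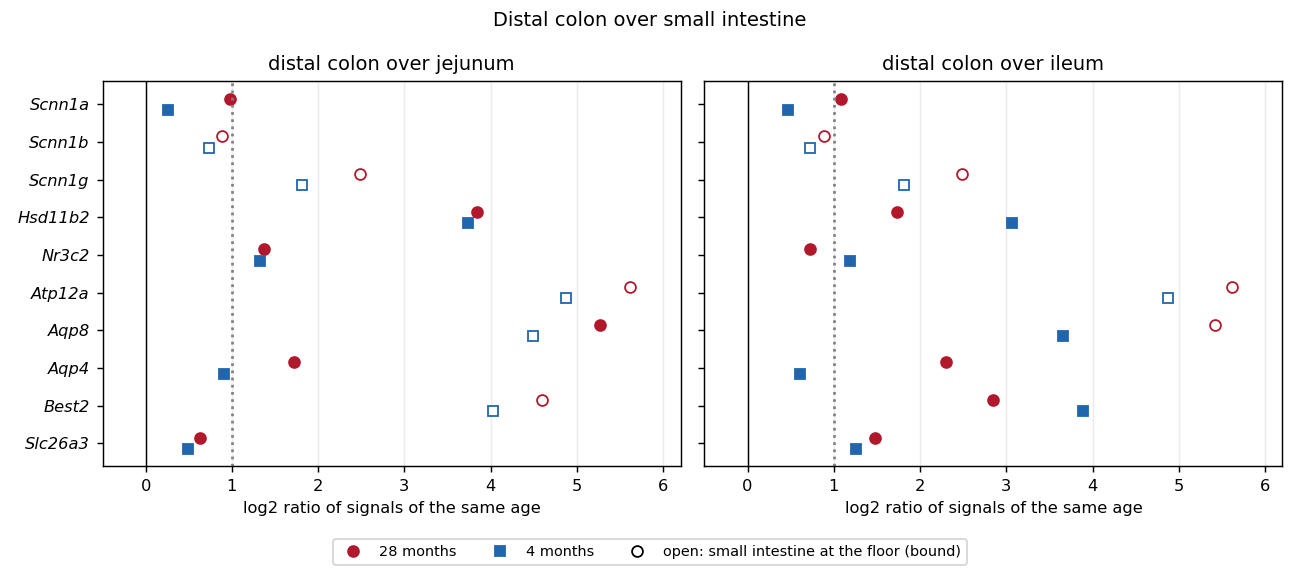
Log2 ratio of distal colon over jejunum (left) and over ileum (right) for each member, circles at 28 months and squares at 4 months, 1 array each. Open symbols are lower bounds because the small intestinal array lay at the floor; the dotted line marks 2-fold. Atp12a stands farthest right in both panels, and Slc26a3 lies left of the dotted line over jejunum.

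In distal colon, 9 of 10 members were higher at 28 months and Nr3c2 was lower. Their median log2 ratio was 0.60, against 0.03 over all 12365 measured genes, whose 5th and 95th percentiles were -0.42 and 0.45. Of the members, 1, Aqp4, was 2-fold or more higher and none was 2-fold lower, where 0.51% and 0.493% of all genes were. At 1.5-fold, 5 members were higher, namely Aqp4, Aqp8, Atp12a, Scnn1g and Scnn1a, and none was lower, where 2.57% and 2.3% of all genes were. The members were picked on this ratio, so the counts carry no weight as evidence. In bulk tissue, a change in the number of cells of a type and a change in RNA per cell cannot be told apart.

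**Figure D3:**
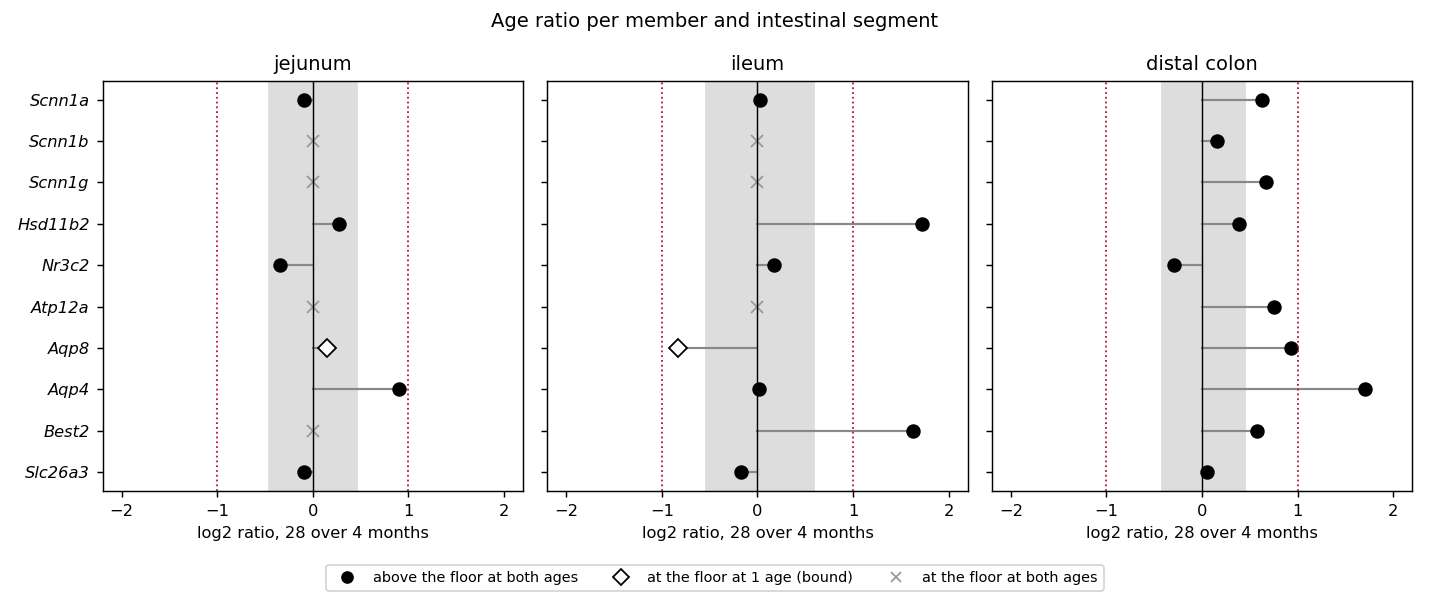
Log2 ratio of 28 over 4 months for each member in jejunum, ileum and distal colon. Filled circles are members above the floor at both ages, open diamonds are bounds with 1 age at the floor, and crosses are members at the floor at both ages; the grey band holds the 5th to 95th percentile of all measured genes and dotted lines mark 2-fold. In distal colon Aqp4, at 1.71, lies beyond the 2-fold line, and in ileum Hsd11b2 and Best2 do.

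All 3 ENaC subunits read above the floor in distal colon at both ages, and 2 of them, Scnn1a and Scnn1g, were 1.5-fold or more higher there at 28 months. Scnn1g encodes the gamma subunit, which is induced by aldosterone in the rodent colon. It read 619 units in distal colon at 28 months against 389 units at 4 months, a 1.59-fold difference or 0.67 on the log2 scale. Its 8 other arrays lay between 59.0 and 84.1 units, under the floor. Scnn1b encodes the beta subunit, which is likewise induced in colon. It read 204 units in distal colon at 28 months and 184 units at 4 months, a log2 ratio of 0.15, and 66.9 to 85.8 units elsewhere. The 2 colon arrays were thus the only ones of the 10 to read either gene above the floor. Scnn1a encodes the alpha subunit, which other epithelia also make. It read 410.0 units in distal colon at 28 months against 265 units at 4 months, 1.55-fold higher or 0.63 on the log2 scale. Scnn1a read 208 and 221 units in jejunum at 28 and 4 months, and 194 and 191 units in ileum. In liver it read 227 units at 28 months and 269 units at 4 months, so that the colon array of 4 months lay within the liver values. In spleen it read 122 and 114 units, near the floor. With the floor at the 75th percentile the colon log2 ratios were 0 for Scnn1a and Scnn1b and 0.37 for Scnn1g. The order of Scnn1a signal by tissue at 28 months was distal colon, liver, jejunum, ileum and spleen, and only the ranges of distal colon and liver over both ages overlapped.

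Of the aldosterone genes, Hsd11b2 had its largest age ratio in ileum, and Nr3c2 had no ratio past 1.5-fold in any tissue. Hsd11b2, which protects the mineralocorticoid receptor from glucocorticoids, read 4702 units in distal colon at 28 months against 3593 units at 4 months, a log2 ratio of 0.39. In ileum it read 1415 units at 28 months and 431 units at 4 months, a 3.28-fold difference or 1.72 on the log2 scale. In jejunum it read 327 units at 28 months and 269.6 units at 4 months, a log2 ratio of 0.28. Liver and spleen read 59.6 to 73.0 units, under the floor. The ileum array of 28 months was 3.32-fold below the distal colon, and that of 4 months 8.34-fold. Nr3c2 encodes the receptor itself. It read 2366 units in distal colon at 28 months and 2906 units at 4 months, a log2 ratio of -0.30, the only member with a negative ratio there. Nr3c2 read 915 and 1163 units in jejunum and 1431 and 1274 units in ileum at 28 and 4 months. Outside the gut it read 517 and 489.7 units in liver and 225 and 176 units in spleen at those ages. Its order by tissue was the same at both ages: distal colon, ileum, jejunum, liver and spleen, and no 2 tissues overlapped.

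Atp12a encodes the catalytic subunit of the colonic proton-potassium pump, which exchanges luminal potassium for protons. It read 5442 units in distal colon at 28 months against 3236 units at 4 months, 1.68-fold higher or 0.75 on the log2 scale. The other 8 arrays read 25.7 to 37.0 units, far below the floor, so the gene was seen in distal colon alone.

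The water channels had the largest colon ratios, and their patterns outside the colon differed from each other. Aqp4 is a water channel best known from astrocytes, and is also found in basolateral membranes of gut epithelial cells. It read 2767 units in distal colon at 28 months and 846 units at 4 months, 3.27-fold higher or 1.71 on the log2 scale. In jejunum it read 838 units at 28 months against 450.3 units at 4 months, 1.86-fold higher. In ileum it read 563 and 558 units, which differed by 0.01 on the log2 scale. In liver Aqp4 went the other way, with 256 units at 28 months and 395 units at 4 months, 1.54-fold lower. In spleen it read 42.5 and 50.2 units, under the floor. A second Aqp4 probe set read 581 units at 28 months and 138 units at 4 months in distal colon, a log2 ratio of 2.08. It read 212 units at 28 months and 105 units at 4 months in jejunum, and 135 and 143 units in ileum. In liver it read 63.5 and 75.8 units, under the floor, so the liver ratio rests on the first probe set alone. The third probe set lay below the floor on all 10 arrays, with 106 and 60.4 units in distal colon. Over the 2 measured probe sets the colon log2 ratios had an SD of 0.26, which is the spread of probe sets on the same arrays and not that between mice or pools.

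Aqp8 is a water channel of colonic surface cells and of the liver. It read 4737 units in distal colon at 28 months against 2479 units at 4 months, 1.91-fold higher or 0.93 on the log2 scale. In ileum it went the other way: 85.0 units at 28 months, under the floor, and 197 units at 4 months, at least 1.78-fold lower. In jejunum it read 123 units at 28 months and 77.3 units at 4 months. In liver Aqp8 read 2121 units at 28 months and 3249 units at 4 months, 1.53-fold lower, and in spleen 62.2 and 54.5 units, under the floor. Liver and colon values of Aqp8 overlapped between the ages, while both lay above every value of jejunum, ileum and spleen.

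The anion transporters differed in where they were read: Best2 in distal colon and ileum, Slc26a3 in all 3 segments. Best2, a bestrophin anion channel of colonic goblet cells in mice, read 2679 units in distal colon at 28 months and 1800.0 units at 4 months. The difference was 1.49-fold, just short of 1.5-fold, and 0.57 on the log2 scale. In ileum it read 374 units at 28 months against 121 units at 4 months, 3.09-fold higher or 1.63 on the log2 scale. With the floor moved to the 75th percentile of all signals, both ileum values lay at it and the log2 ratio was 0. Jejunum read 101 and 102 units, and liver and spleen read 83.2 to 104 units, all under the floor. Slc26a3 encodes the chloride-bicarbonate exchanger whose loss in humans causes congenital chloride diarrhoea. It read 12160.0 units in distal colon at 28 months and 11775 units at 4 months, a log2 ratio of 0.05. Slc26a3 read 7842 and 8372 units in jejunum and 4365 and 4926 units in ileum at 28 and 4 months. Its log2 ratios of -0.09 in jejunum and -0.17 in ileum were also close to 0. Over its 3 probe sets above the floor, the SD of the log2 ratio was 0.14 in distal colon, 0.29 in ileum and 0.16 in jejunum. The fourth probe set lay under the floor on all arrays. The probe set that stands for Slc26a3 read 28.9 to 30.6 units in liver and spleen, under the floor, and lay above it on the 6 intestinal arrays, where none of its age ratios reached 1.5-fold.

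In ileum, 7 members were measured, with a median log2 ratio of 0.02, against 0.03 over 12513 genes. Hsd11b2 and Best2 were 2-fold or more higher and no member was 2-fold lower, where 0.847% and 1.66% of all genes were. At 1.5-fold the counts were 2 higher and 1 lower, which was Aqp8, against 5.17% and 4.14% of all genes. In jejunum 6 members were measured, and none was 2-fold higher or lower, where 0.235% and 0.989% of all genes were. Aqp4 was 1.5-fold higher and no member was 1.5-fold lower, against 1.94% and 2.99% of all genes. In liver 4 members were measured, and Aqp8 and Aqp4 were 1.5-fold lower, where 0.798% of all genes were. In spleen Scnn1a and Nr3c2 alone were measured, and neither differed by 1.5-fold.

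The other genes of these pathways gave 82 genes on the array in 5 lists of transport genes, and most were not past 2-fold. In distal colon 69 were measured, with 0 past 2-fold higher and 3 lower, where 0.51% and 0.493% of all genes were, and a median log2 ratio of -0.03. In ileum 72 were measured, 2 higher and 4 lower, against 0.847% and 1.66% of all genes, with a median of 0.13. In jejunum 71 were measured, 1 higher and 5 lower, against 0.235% and 0.989% of all genes, with a median of -0.06. Among 24 genes that control ENaC and aldosterone action in distal colon, none was 2-fold higher or lower, and the median was -0.03. Of them 5 were 1.5-fold higher, where 2.57% of all genes were, and these were picked out after their values were seen. The 9 potassium transport genes measured in distal colon had a median of 0.11 and none past 2-fold, and the 4 other aquaporins one of 0.12 and none. The 17 genes of sodium-proton exchange and bicarbonate had a median of -0.20 with 1 lower, and the 15 of chloride secretion one of -0.01 with 2 lower. Sgk1, the kinase that aldosterone induces to keep ENaC in the membrane, read 6831 units at 28 months and 3467 units at 4 months in distal colon, 1.97-fold higher. Fxyd4, a small subunit that adjusts the sodium pump in kidney and colon, read 6209 units against 3991 units in distal colon at 28 and 4 months, 1.56-fold higher. The other 3 were Fxyd3, at a log2 ratio of 0.68, and Usp2 and Wnk4, both at 0.61. Other genes of that list known to respond to steroid hormones, also picked out later, had log2 ratios of 0.22 for Per1, 0.04 for Fkbp5, 0.02 for Tsc22d3, -0.22 for Klf15 and -0.27 for Cnksr3. Atp1b1, a sodium pump subunit, read 18548 units in distal colon at 28 months and 17472 units at 4 months.

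In distal colon the 3 pathway genes past 2-fold were of the chloride and bicarbonate lists. There Car1, a carbonic anhydrase of colonic surface cells, read 6485 units at 28 months against 22226 units at 4 months, 3.43-fold lower. Prkg2, the cyclic GMP-dependent kinase downstream of guanylin, read 94.3 units at 28 months, under the floor, and 572 units at 4 months, at least 5.17-fold lower. Clca4b read 45.2 units at 28 months and 408 units at 4 months in distal colon, at least 3.69-fold lower. Markers of the ileum went both ways in distal colon: of 7, 5 were measured, 3 below 0 and 2 above, with a median log2 ratio of -0.78. The summed signal of the list was 1990 units at 28 months and 2776 units at 4 months. Among them Slc51a read 63.6 units at 28 months and 614 units at 4 months, and Slc10a2 read 45.5 and 190.5 units. Slc51b read 294 against 517 units, while Fabp6 read 429 against 272 units and Ceacam20 1069 against 1042 units. Clca4b and Prkg2 also read 8833 and 2567 units in ileum at 4 months, and the part of the ileum markers in their colon differences was not tested. In ileum the sodium-proton exchanger Slc9a3, which takes up sodium with no need for ENaC, read 351 units at 28 months and 1564 units at 4 months, 4.46-fold lower. It read 249 units at 28 months and 454 units at 4 months in distal colon, a log2 ratio of -0.86. Car2 and Car1 had log2 ratios of -1.48 and -1.46 in ileum. Car12 had log2 ratios of 1.29 in ileum and -0.78 in distal colon. Kcnma1, a large-conductance potassium channel, had a log2 ratio of 1.19 in ileum. In jejunum the guanylin gene Guca2a read 3774 units at 28 months and 9460.0 units at 4 months, a log2 ratio of -1.33. Clca4a was lower by a log2 ratio of -2.96, Clca4b by -1.15 and Pdzk1, a scaffold of brush-border transporters, by -1.01. Clca3b was at least 2.78-fold higher. Segment markers moved with these genes in jejunum: of 10 genes listed as proximal markers 3 were 2-fold lower at 28 months, where 0.989% of all genes were. The median log2 ratio of the 10 was -0.68, with sums of 86910.5 units at 28 months and 129611 units at 4 months. Cubn read 73.1 units in jejunum at 28 months and 3631 units at 4 months, Slc5a12 read 27.4 and 2522 units, and Lct read 3600.4 and 12629 units. Although on the proximal list, Cubn read higher in ileum, with 9856 units at 28 months and 8281 units at 4 months. The 4 ileum markers measured in jejunum had a median of -0.67, and Ceacam20 read 527 units at 28 months and 1498 units at 4 months. Their part in the jejunum differences was not tested. Of the other water channels Aqp3, a channel of the basolateral membrane, had log2 ratios of -1.22 in jejunum and -1.01 in ileum.

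**Figure D4:**
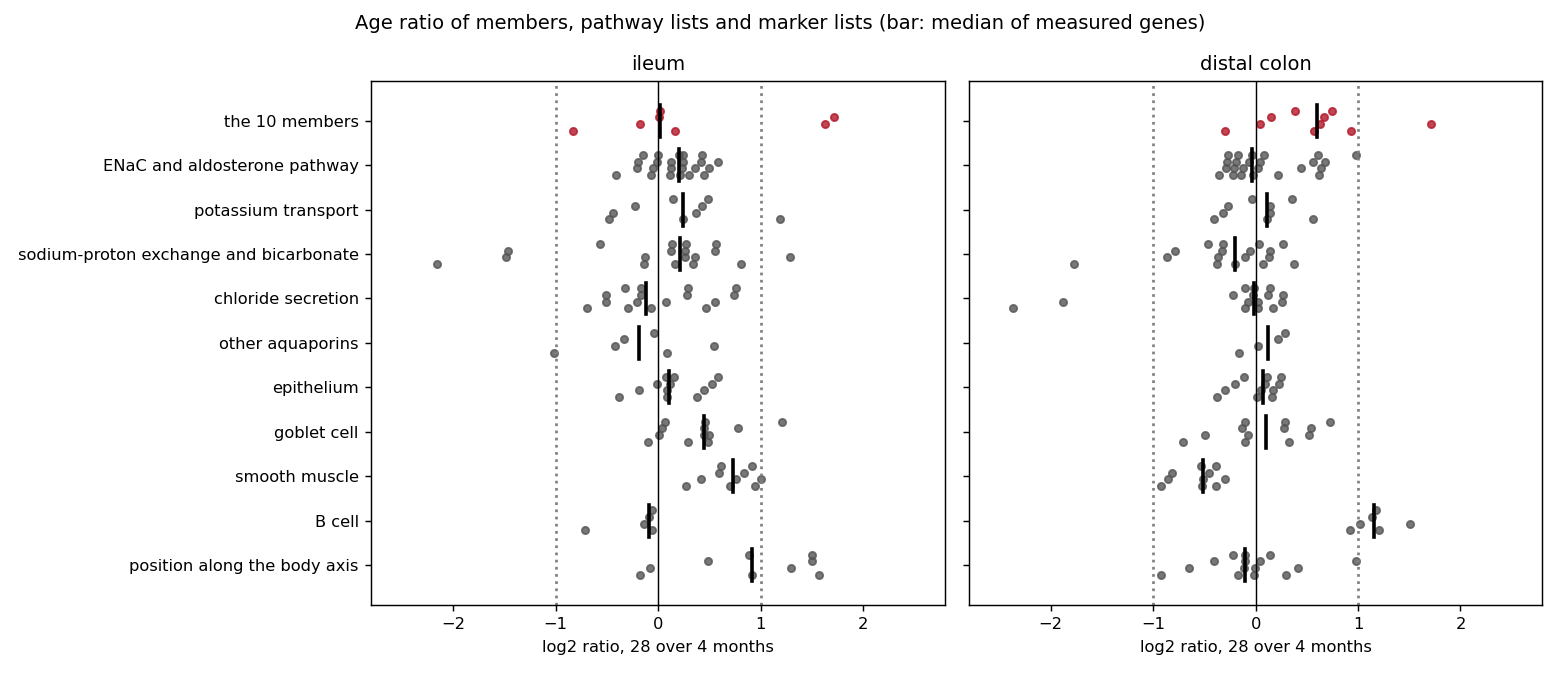
Log2 ratio of 28 over 4 months for the 10 members (red), the 5 pathway lists and 5 marker lists (grey) in ileum (left) and distal colon (right), 1 point per measured gene. Black bars are medians and dotted lines mark 2-fold. The members' median is 0.60 in distal colon and 0.02 in ileum, and the position genes of the ileum have a median of 0.91.

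Markers of position moved in ileum together with Hsd11b2 and Best2. Of 9 position genes measured there, 4 were 2-fold higher at 28 months, where 0.847% of all genes were. The median log2 ratio of the 9 was 0.91. Hoxc8 read 915 units against 308 units at 28 and 4 months, Hoxb6 read 506 against 178 units and Hoxb9 read 399 against 162 units. Insl5, a hormone of hindgut enteroendocrine cells, read 332 against 117 units. The summed signal of the list in ileum was 3948 units at 28 months and 2195 units at 4 months. Of 10 markers of the proximal small intestine, 9 were 2-fold lower in ileum, where 1.66% of all genes were. The median log2 ratio of the 10 was -4.22, and Lct had -6.99. Of 7 ileum markers 2 were higher 2-fold, Fgf15 at 2.76 and Slc10a2 at 1.46, against 0.847% of all genes. Smooth muscle genes had a median of 0.73 in ileum, with 1 of 10 past 2-fold, and goblet cell genes one of 0.45, with 1 of 12 past 2-fold. Their part in the Hsd11b2 and Best2 differences was not tested. Where along the ileum the pieces were taken is not given in the labels.

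In distal colon, position genes had a median log2 ratio of -0.10 over 15 measured, with none past 2-fold, although Insl5 read 3940 units against 1998 units at 28 and 4 months. Hoxb13 had a log2 ratio of 0.42 and Hoxd13 of -0.12. The 12 epithelial genes had a median of 0.07, with none past 2-fold and summed signals of 133966 units at 28 months and 131857 units at 4 months. The 10 surface colonocyte genes had a median of -0.30. Of them 3 were 2-fold lower, Cyp2c55, Car1 and Emp1, where 0.493% of all genes were. The summed signal of the 10 was 88701 units at 28 months and 121528 units at 4 months. The 10 smooth muscle genes were all below 0, with a median of -0.52 and sums of 74322 units at 28 months and 105599 units at 4 months. Of 6 B cell genes measured, 5 were 2-fold higher at 28 months, where 0.51% of all genes were. The sums of the 6 were 3642 and 1579 units at 28 and 4 months. Goblet cell genes had a median of 0.10, with none past 2-fold. Of the enteric glia and neuron genes, 6 of 9 on the array were measured in distal colon, with a median of -0.27 and none past 2-fold. The glial genes S100b and Gfap stayed under the floor there at both ages, and Sox10 read 328 units at 28 months and 387 units at 4 months. These lists' part in the colon differences of the members was not tested.

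The genes with the pattern most like each member were found as those with the smallest root mean square difference of log2 signals over the 10 arrays, among 13981 genes. The distance is small by construction for a gene at the floor on most arrays. Atp12a was closest to Fxyd4 at 0.11, Hoxd13 at 0.20 and Tgm3 at 0.24. Fxyd4 was above the floor in distal colon and, narrowly, in liver, and Tgm3 read 4498 units in distal colon at 28 months and 2275 units at 4 months. Best2 was closest to Insl5 at 0.18, whose ileum and colon values are given above, and to Cldn8 and Mboat1 at 0.44 each. Hsd11b2 was closest to Sema3c at 0.39, to Tfcp2l1 at 0.41 and to Mboat1 at 0.47. Tfcp2l1, a transcription factor, read 1383 units at 28 months and 441 units at 4 months in ileum, and 6272 and 4491 units in distal colon. Aqp8 had no close match, with Sult1a1 at 0.56, Ppp1r3b at 0.77 and Acsm3 at 0.80. Sult1a1 read 9404 and 8254 units in distal colon, and 11012 and 8611 units in liver, at 28 and 4 months.

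Scnn1g was closest to Itgb8 at 0.04, Tmprss13 at 0.05 and Ly6g6e at 0.07. Scnn1b was closest to Pi16 and Il17d at 0.05 each and to Ptk7 at 0.06. Outside the colon Pi16 and Ptk7 lay near the floor, and Il17d read 25.7 to 51.7 units, far below it. Scnn1a was closest to Tcta at 0.16, Kif13b at 0.17 and Snx16 at 0.18. Nr3c2 was closest to Pdxdc1 at 0.27 and to Unc13b and Neo1 at 0.28. Aqp4 was closest to Csrp2 at 0.43, Pllp at 0.44 and Pdxdc1 at 0.52. Csrp2 read 9086 units in distal colon at 28 months and 8193 units at 4 months. Slc26a3 was closest to Tmem45b at 0.39, Agr2 at 0.46 and Chgb at 0.47.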

How the data were processed

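RNA of pooled mice was read on 10 arrays. The deposited log2 signals per probe set were made by the authors with MAS5 and the R package affy, per the submitters' processing notes. Their versions, roles and the normalization are not given in the sources used here, and the base of the log was taken from the values. The signals were taken out of the log, each array was scaled to a 2% trimmed mean of 500 units, and values under 110.7 units, the median of all signals, were set to it. For each gene, the probe set of highest average log2 signal stood for it, among those naming it alone in GEO's platform annotation: 34958 probe sets named 1 gene, 932 several, and 9211 were not listed. Symbols were checked through RefSeq, and 0 changed.

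No test was run, since each group had 1 array. With so few arrays, the precision of a ratio is unknown. The code was tested on simulated data. The members and lists were chosen with earlier results of these data known. All members were named. Of each pathway list, genes past 2-fold were named, up to 4 per list and segment, and of each marker list the label check genes, the strongest and those past 2-fold were eligible. The 3 nearest patterns per member were named. Alternatives were the floor at the 25th or 75th percentile, no floor with 16 units added, other scalings and probe set rules, and 1.5-fold. Centring on epithelial genes and setting the colon against jejunum alone were chosen after seeing the data. Python 3.11.15, numpy 2.4.6, pandas 2.3.3, statsmodels 0.14.6 and matplotlib 3.10.9 were used.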

Additional observations from a re-analysis of the deposited data

Results flagged for a closer look

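Among the members and the named pathway genes, 3 were 1.5-fold or more higher at 28 months in 1 tissue and 1.5-fold or more lower in another. They are given between the tissues of highest and lowest ratio; each ratio is 1 array against 1 array, and the difference was not tested. The log2 ratio of Aqp8 was at least 1.77 higher in distal colon than in ileum, a bound set by the floor of 111 units, under which the ileum value of 28 months lay. With the floor at the 75th percentile the ileum ratio of Aqp8 was 0. The log2 ratio of Aqp4 was 2.34 higher in distal colon than in liver, where it was lower at 28 months. In liver only the probe set that stands for Aqp4 lay above the floor. The log2 ratio of Car12 was 2.07 higher in ileum than in distal colon.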

How the results depend on the processing

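No paired analysis was possible because each group held 1 array. Of 96 counts recomputed under other settings, 88 stayed within 1.5 times and 8 moved. Of 300 member ratios, 268 moved by less than the spread between probe sets, 32 moved by more, and none past 2-fold changed sign. Many of the 300 could not move, so 268 is no measure of robustness. A member with 1 probe set keeps its ratio under the probe set rules. A member under the floor at both ages stays at 0 under the higher floor and the other scalings. With 1.5-fold in place of 2-fold, the members higher at 28 months numbered 1 in jejunum and 5 in distal colon, and those lower in ileum numbered 1. Those higher in distal colon than in both small intestinal segments at 28 months numbered 10. The share of all genes past 1.5-fold in that contrast was not computed. The segment pattern also chose the members, so nothing is read from that count. Centring on the median of the epithelial genes gave 1 member higher in jejunum. With the floor at the 75th percentile 1 member was higher in ileum, and with the floor at the 25th percentile, or with no floor and 16 units added, 1 member was lower there. The member involved at the low floor was Aqp8, whose ileum log2 ratio ranged from -1.22 to 0 over the settings. Best2 in ileum ranged from 0 to 1.66, Scnn1a in distal colon from 0 to 0.66, and Scnn1g in distal colon from 0.37 to 0.70. Aqp4 in distal colon ranged from 1.63 to 2.08. A ratio of 0 in these ranges means both ages lay at the higher floor, and so follows from the floor itself. For Aqp4 in distal colon, 1.63 came from centring on the epithelial genes and 2.08 from the median over probe sets. Other causes were not tested. Leaving out replicates was not possible. Signals near the floor, such as those of Scnn1b, cannot show a small change.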

Other observations

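Other water channels had tissue patterns of their own. Aqp9, a glycerol channel of hepatocytes, read 8602 units in liver at 28 months and 7922 units at 4 months, and 216 to 276 units in spleen. It lay under the floor in all 6 intestinal arrays. Aqp1, a water channel of red cells and vessels, read 4022 units at 28 months and 3038 units at 4 months in spleen, and 1453 and 1629 units in distal colon at those ages.

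The sodium pump subunit Atp1b1 read 680.5 units in spleen at 28 months and 1424 units at 4 months, the one gene of the ENaC and aldosterone list past 2-fold in spleen. Of the goblet cell list, Zg16 read 152 units in spleen at 28 months and 3893 units at 4 months. Whether the spleen pool of 4 months held other tissue was not tested.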
